A study of Homo sapiens with 4 samples.

Results

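The genes described here encode the metalloproteases of the MMP, ADAM and ADAMTS families and their inhibitors, the TIMPs. They were chosen by symbol among array rows with exactly 1 gene symbol in the platform annotation, taking the row with the highest mean for each gene and leaving out antisense genes and pseudogenes. The rule found 67 members among 22465 genes tested: 22 MMPs, 19 ADAMs, 18 ADAMTS proteases, 5 ADAMTS-like genes and 3 TIMPs. TIMP2 and MMP23B share their rows with another symbol and were not analysed here. The arrays compared A549 cells transduced with 1 hairpin against INSL4 (shINSL4, 2 arrays) with A549 cells carrying the control (shCtl, 2 arrays). A549 is a long-established carcinoma line of human lung epithelium, and pLKO.1 lentiviruses delivered the hairpins to all 4 cultures, per the series design. The control is a scrambled hairpin in that design and a vector control in the labels. Each group had 2 cultures described as independent. The sources do not say whether they go back to separate transductions, so a p-value here covers only how far these cultures differ from each other.

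MMPs are secreted or membrane-bound zinc enzymes that cut collagens, laminins and other matrix proteins, and TIMPs block them by binding the active site. ADAMs sit in the cell membrane, where the active members cut the outer part off growth factor precursors, cytokine receptors and adhesion molecules, a step called shedding. ADAMTS enzymes are secreted and act on proteoglycans, procollagens and other matrix proteins. In lung carcinoma these families are known for their roles in invasion and in the release of ligands for ERBB receptors.

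Promoter windows of RefSeq genes (GRCh38.p14, 250 bases before to 50 after the start site) were found for 42 of the 67 members. A motif was searched on both strands for AP-1 (TGANTCA), a factor known to drive several MMP genes, for CREB (the CRE, TGACGTCA) and for Sp1-type factors (the GC box, GGGCGG). The windows of ADAM10 and ADAM17 are shown because these related sheddases moved in opposite directions, that of TIMP4 because this inhibitor fell, and that of MMP7 because it holds an AP-1 match. Capitals mark motif matches, which did not overlap one another in these windows.

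ADAM10 promoter, chr15:58749658-58749957, minus strand: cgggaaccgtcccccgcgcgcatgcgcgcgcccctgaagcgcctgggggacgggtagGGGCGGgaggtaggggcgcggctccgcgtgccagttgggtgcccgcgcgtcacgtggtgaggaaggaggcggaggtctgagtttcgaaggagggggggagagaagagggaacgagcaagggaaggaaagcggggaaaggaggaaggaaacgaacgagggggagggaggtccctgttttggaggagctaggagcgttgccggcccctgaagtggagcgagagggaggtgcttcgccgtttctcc
ADAM17 promoter, chr2:9555781-9556080, minus strand: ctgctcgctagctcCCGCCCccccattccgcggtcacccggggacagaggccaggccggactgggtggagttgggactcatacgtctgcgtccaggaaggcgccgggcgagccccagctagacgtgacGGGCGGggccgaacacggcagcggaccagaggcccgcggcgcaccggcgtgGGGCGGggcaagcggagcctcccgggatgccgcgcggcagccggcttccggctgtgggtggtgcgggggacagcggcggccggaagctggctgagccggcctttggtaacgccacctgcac
TIMP4 promoter, chr3:12158863-12159162, minus strand: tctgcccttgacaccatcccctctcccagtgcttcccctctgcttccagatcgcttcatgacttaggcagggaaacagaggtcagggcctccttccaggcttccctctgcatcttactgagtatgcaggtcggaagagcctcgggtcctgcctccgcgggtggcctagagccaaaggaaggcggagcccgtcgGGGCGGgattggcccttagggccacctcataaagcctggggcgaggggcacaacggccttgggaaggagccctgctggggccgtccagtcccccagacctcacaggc
MMP7 promoter, chr11:102530698-102530997, minus strand: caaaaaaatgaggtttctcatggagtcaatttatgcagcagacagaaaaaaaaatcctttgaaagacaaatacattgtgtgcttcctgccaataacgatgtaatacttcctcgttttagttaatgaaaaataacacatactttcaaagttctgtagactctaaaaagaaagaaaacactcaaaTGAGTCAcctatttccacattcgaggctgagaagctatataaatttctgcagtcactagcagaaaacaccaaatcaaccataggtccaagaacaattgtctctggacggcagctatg

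The GC box was present once in the ADAM10 window, 3 times in that of ADAM17 and once in that of TIMP4, and the MMP7 window held TGAGTCA starting at position -67 from the start site. Over the 42 windows, the AP-1 motif was found in 4 (9.52%), in MMP7, MMP10, MMP20 and ADAMTS12, against 7.71% of all 35116 windows. The CRE was found in 1 (2.38%), that of ADAMTS6, against 1.85% of all windows. The GC box was found in 28 (66.7%), against 45.0% of all windows. The member windows were 1 per gene, while the 35116 windows were not limited to 1 per gene or to the genes tested. The windows differed by family. The median GC content was 69.5% in 12 ADAM windows and 70.7% in 11 ADAMTS windows, while it was 44.3% in 11 MMP windows. A match is a description of these letters and not a measured binding site.

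The deposited values are log2 levels made by the authors with RMA, a method that subtracts background, equalises the distributions of the arrays and combines the probes of a row. INSL4 had 7.26 and 7.22 in shINSL4 and 9.03 and 8.92 in shCtl, so both knockdown arrays lay below both control arrays. It fell by 1.73 on the log2 scale (SE 0.0684, limma with Benjamini-Hochberg adjustment, adjusted p = 0.000142). Array medians over tested genes were 6.98 and 6.97 in shINSL4 and 6.94 and 6.91 in shCtl, and the median log2 difference of all genes was 0.08. Of the epithelial markers, KRT8, KRT18, KRT7, CDH1 and EPCAM fell, by 0.28 to 0.54 on the log2 scale. KRT19 went the other way, with a log2 difference of 0.12, and did not pass. Of 6 alveolar type II markers, ABCA3 fell by 0.28, while the other 5 had log2 differences above 0 and did not pass. NAPSA had 0.28 (higher at an unadjusted p of 0.026), SFTPA1 0.17, SFTPC 0.13, SFTPB 0.11 and LAMP3, below the dim line defined in the next paragraph, 0.04. Of 6 fibroblast markers, DCN rose by 0.30 and LUM fell by 0.78, both at levels below that line. The other 4 (COL1A1, COL1A2, PDGFRB and PDGFRA) had log2 differences of 0.02 to 0.15 and did not pass. Of 5 endothelial and 5 haematopoietic markers, 0 passed limma with Benjamini-Hochberg adjustment. At an unadjusted p under 0.05, 2 endothelial markers were higher and 1 haematopoietic marker lower, beside 20.8% and 13.6% of all genes. Over all genes, 6.41% rose and 9.42% fell at an adjusted p under 0.05 in that fit. The part of the marker shifts in the protease results was not tested. In these bulk samples, fewer cells of a kind and less RNA per cell cannot be told apart.

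An array row gives some signal for a silent gene. The 95th percentile of the mean levels of 349 olfactory receptor genes, which are mostly silent outside the nose, was a log2 level of 6.23 and serves as a dim line. It is a description and not a detection test, because the level of a row also depends on its probes. Of the 67 members, 37 lay above the line and 30 at or below it, against 65.5% of all genes above it. All 3 TIMPs lay above the line, as did 11 of 19 ADAMs, 10 of 18 ADAMTS genes, 3 of 5 ADAMTS-like genes and 10 of 22 MMPs. Among members with a promoter window, 22 of the 24 above the line held a GC box, against 6 of the 18 at or below it. The same split was not made over all genes.

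The question put to the arrays was which of these genes change when INSL4, a placental insulin-like peptide gene, is knocked down. With only 1 hairpin against INSL4, effects of lower INSL4 and other effects of that hairpin cannot be told apart. In shINSL4, 6 members rose (ADAM32, ADAM17, ADAMTS16, ADAM23, ADAMTS1 and ADAM9) and 5 fell (TIMP4, ADAMTS9, ADAM10, MMP24 and ADAM12) at an adjusted p under 0.05. That is 8.96% of the members higher and 7.46% lower, beside 6.41% of all genes higher and 9.42% lower. Together, 11 of 67 members changed, beside 15.8% of all genes, a share close to that background. Of the 67, 2 were higher and 3 lower at that threshold by 1.5-fold or more, beside 0.494% and 2.99% of all genes. At an unadjusted p under 0.05, 17 of the 67 members were higher and 6 lower, beside 20.8% and 13.6% of all genes. The count of higher members was smaller without either shINSL4 array or shCtl replicate 2, and larger without shCtl replicate 1. The count of higher genes over all genes moved the same way.

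**Figure D1:**
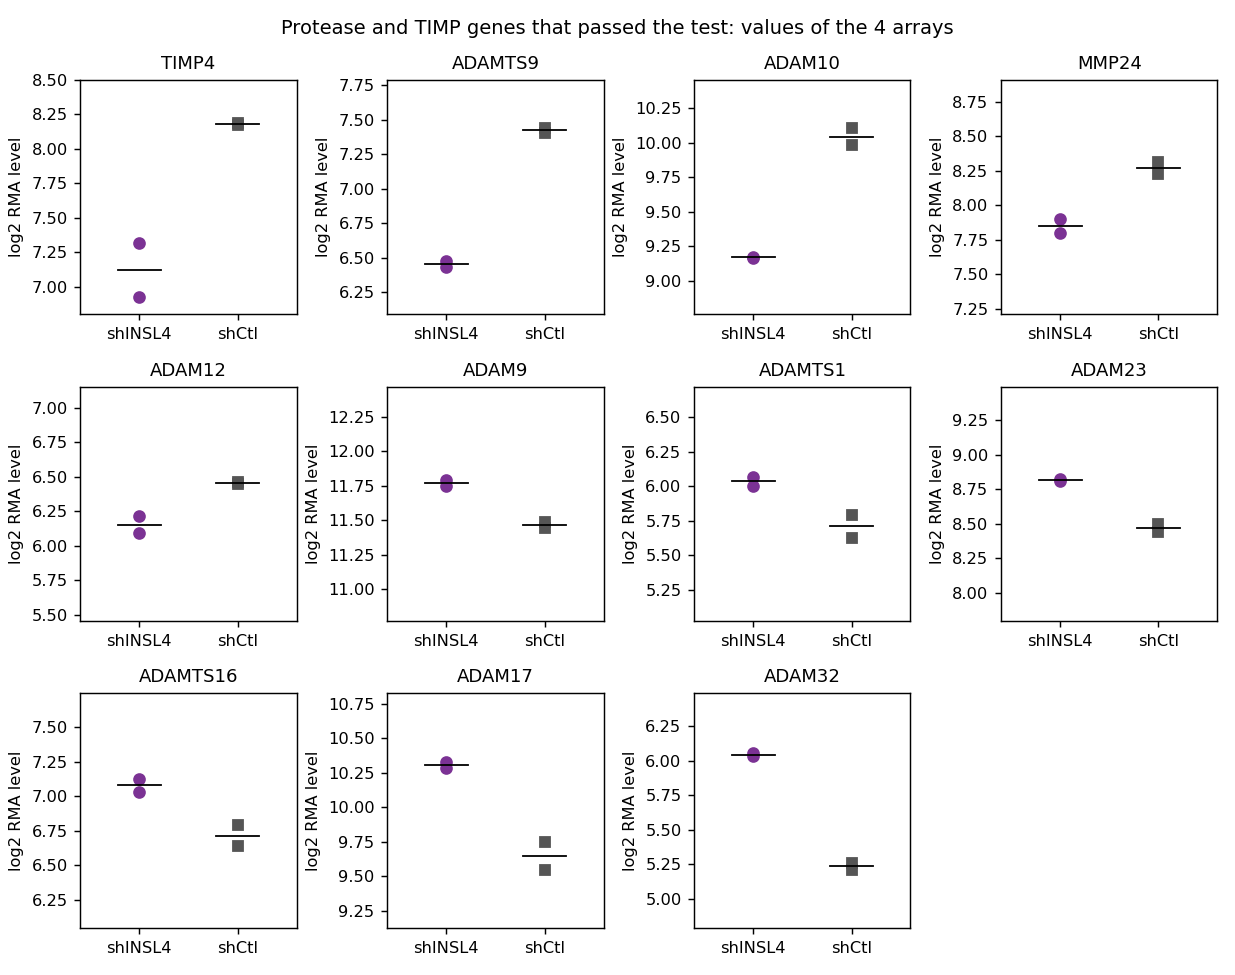
Log2 RMA level of the 11 members that passed the test, with shINSL4 arrays as circles, shCtl arrays as squares and bars for the means of 2 arrays. Each panel spans the same height in log2 units around its own mean. The groups do not overlap in any panel, and the shINSL4 arrays of TIMP4 lie further apart (6.93 and 7.31) than those of the other genes.

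The main sheddases ADAM10 and ADAM17 changed in opposite directions. ADAM10, which cuts Notch receptors, E-cadherin and several ERBB ligands, had 9.17 and 9.18 in shINSL4 and 9.98 and 10.11 in shCtl. Both knockdown arrays were below both control arrays. ADAM10 fell by 0.87 on the log2 scale (SE 0.0690, limma with Benjamini-Hochberg adjustment, adjusted p = 0.000608), which is 1.83-fold lower. ADAM17, also called TACE, which releases TNF, amphiregulin and TGF-alpha, had 10.33 and 10.28 in shINSL4 and 9.54 and 9.75 in shCtl. Here both knockdown arrays were above both control arrays. ADAM17 rose by 0.66 on the log2 scale (SE 0.0824, limma with Benjamini-Hochberg adjustment, adjusted p = 0.00322), which is 1.58-fold higher. The 95% intervals of the log2 differences were -1.04 to -0.71 for ADAM10 and 0.46 to 0.86 for ADAM17.

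Of the 19 ADAMs, 4 rose and 2 fell, or 21.1% and 10.5%, beside 6.41% and 9.42% of all genes, and whether the family differs from all genes was not tested. Apart from ADAM32, those other than ADAM10 and ADAM17 changed less. ADAM32, best known from the testis, had 6.03 and 6.05 in shINSL4 and 5.21 and 5.26 in shCtl, a log2 difference of 0.81 (SE 0.0620, limma with Benjamini-Hochberg adjustment, adjusted p = 0.000552). Its arrays separated by group, but all 4 values lay below the dim line. ADAM9, a widely expressed sheddase whose gene is next to ADAM32 on chromosome 8, had 11.79 and 11.75 in shINSL4 and 11.45 and 11.49 in shCtl. It rose 1.23-fold (log2 difference 0.30, SE 0.0624). ADAM23, which lacks protease activity and acts in cell adhesion, had 8.83 and 8.81 in shINSL4 and 8.44 and 8.50 in shCtl, and rose 1.27-fold (log2 difference 0.35, SE 0.0623). ADAM12, which cleaves IGF-binding proteins and HB-EGF, had 6.21 and 6.09 in shINSL4 and 6.46 and 6.45 in shCtl. It fell by 0.30 on the log2 scale (SE 0.0688), with its knockdown values below the dim line and its control values above it. Adjusted p-values of ADAM9, ADAM23 and ADAM12 were 0.0216, 0.0128 and 0.0290 (limma with Benjamini-Hochberg adjustment). The calls of ADAM9 and ADAM23 were lost without either shINSL4 array, at an adjusted p of 0.0555 to 0.195, and that of ADAM12 without shINSL4 replicate 2 (0.264), shCtl replicate 1 (0.0505) or shCtl replicate 2 (0.0695).

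The remaining 13 ADAMs did not pass in the fit of the deposited values. The closest was ADAM15, a membrane ADAM that also binds integrins, with 8.19 and 8.16 in shINSL4 and 8.42 and 8.32 in shCtl, a log2 difference of -0.20 (SE 0.0669, limma with Benjamini-Hochberg adjustment, adjusted p = 0.0933). ADAM8, an ADAM best known from leukocytes, had a log2 difference of 0.18, with a 95% interval of -0.01 to 0.36. ADAM19, another active membrane protease, had a log2 difference of 0.19, with a 95% interval of 0.03 to 0.36 (adjusted p = 0.106, limma with Benjamini-Hochberg adjustment). ADAM15 passed in 5 of 14 alternative fits (both variance trends, median centring and both filters on dim genes), ADAM19 in the 2 with those filters, ADAM33 in 1, without shCtl replicate 1, and ADAM30 in 1, the replicate block (adjusted p = 0.0491, limma with Benjamini-Hochberg adjustment). The sperm-associated genes ADAM2, ADAM18, ADAM20, ADAM21, ADAM29 and ADAM30 all lay below the dim line, with log2 differences from -0.09 to 0.20.

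**Figure D2:**
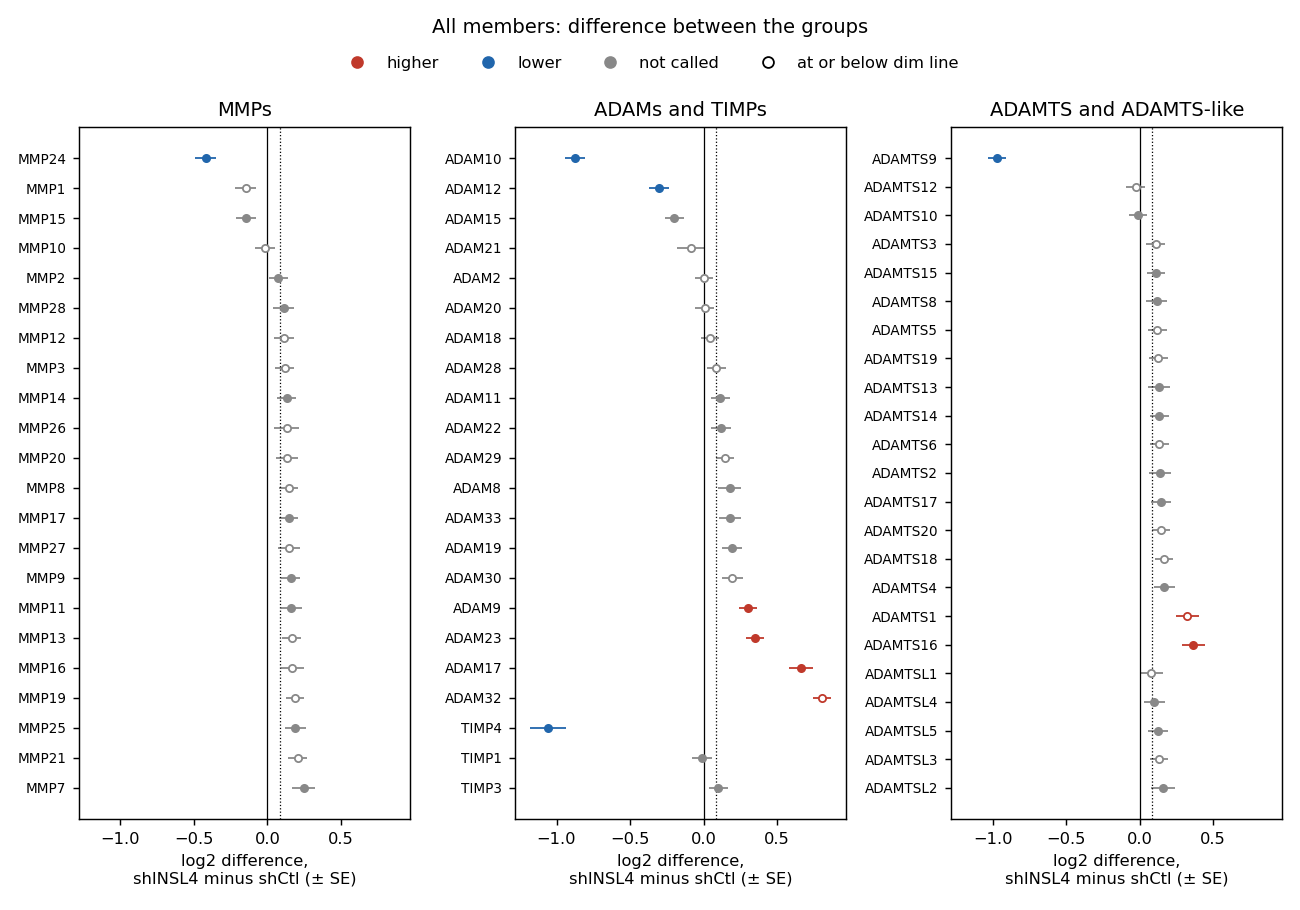
Log2 difference, shINSL4 minus shCtl, with limma's standard error for each of the 67 members, by family. Colours give the test result, open circles are rows at or below the dim line, the solid line is 0 and the dotted line is the median of all genes (0.08). Most points cluster between 0 and 0.25, with ADAM10, ADAMTS9 and TIMP4 far to the left and ADAM17 and ADAM32 to the right.

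Of the 3 TIMPs, all above the dim line, 1 fell and 0 rose, beside 13.5% and 7.32% of all genes above that line. Whether the TIMPs differ from all genes was not tested. TIMP4, an inhibitor of several MMPs whose gene lies on chromosome 3, had 6.93 and 7.31 in shINSL4 and 8.19 and 8.17 in shCtl. The knockdown arrays differed from each other more than the control arrays did, yet both lay below them. TIMP4 fell by 1.06 on the log2 scale (SE 0.121, limma with Benjamini-Hochberg adjustment, adjusted p = 0.00235), 2.08-fold lower and the largest change in size among the 67 members. The log2 difference was -0.87 without shINSL4 replicate 1 and -1.25 without shINSL4 replicate 2. TIMP1, a broad MMP inhibitor also known as a growth factor, had 9.07 and 9.15 in shINSL4 and 9.15 and 9.10 in shCtl, so its groups overlapped. Its log2 difference was -0.01 with a 95% interval of -0.17 to 0.14. TIMP3, which binds the matrix and also inhibits ADAM17, had 6.87 and 6.80 in shINSL4 and 6.77 and 6.70 in shCtl, a log2 difference of 0.10 with a 95% interval of -0.06 to 0.26.

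Of the 22 MMPs, 0 rose and 1 fell (4.55%), beside 6.41% and 9.42% of all genes (limma with Benjamini-Hochberg adjustment). At an unadjusted p under 0.05, 6 were higher and 1 lower, beside 20.8% and 13.6% of all genes. At or below the dim line, where 12 of the 22 lay, 4.68% of all genes rose and 1.61% fell. MMP24, a membrane-type MMP best known from the nervous system, had 7.90 and 7.80 in shINSL4 and 8.31 and 8.23 in shCtl. Both knockdown arrays lay below both control arrays, and MMP24 fell by 0.42 on the log2 scale (SE 0.0703, limma with Benjamini-Hochberg adjustment, adjusted p = 0.00981), 1.34-fold lower. The separate row of its antisense gene MMP24-AS1 had a log2 difference of -0.02 (SE 0.0605). MMP14, the membrane-type MMP that activates MMP2, had 6.54 and 6.47 in shINSL4 and 6.37 and 6.37 in shCtl, a log2 difference of 0.13 with a 95% interval of -0.02 to 0.28. MMP15, another membrane-type MMP, had a log2 difference of -0.14 with a 95% interval of -0.31 to 0.02. MMP25 and MMP17, which are anchored to the membrane by a lipid, had log2 differences of 0.19 and 0.15, and MMP16, below the dim line, one of 0.17.

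The gelatinases and the MMP gene cluster of chromosome 11 had no member past the threshold. MMP2 and MMP9, which cut denatured collagen and basement membrane collagen, had log2 differences of 0.07 (95% interval -0.08 to 0.23) and 0.16 (0.00 to 0.31). The cluster comprises the collagenases MMP1, MMP8 and MMP13, the stromelysins MMP3 and MMP10, the macrophage elastase MMP12, and MMP7, MMP20 and MMP27. Of these 9 genes, 8 lay below the dim line and 0 passed limma with Benjamini-Hochberg adjustment, while 2, MMP7 and MMP13, were higher at an unadjusted p under 0.05, a share near the 20.8% of all genes. MMP7, the matrilysin made by epithelial cells, was the 1 above the line, with 8.32 and 8.51 in shINSL4 and 8.16 and 8.18 in shCtl. Its log2 difference was 0.25 (SE 0.0793, limma with Benjamini-Hochberg adjustment, adjusted p = 0.0844). With the replicate number as a block its adjusted p was 0.0400, and over all 14 alternative fits it ran from 0.0276 to 1.00. MMP1 had 4.45 and 4.56 in shINSL4 and 4.69 and 4.62 in shCtl, a log2 difference of -0.15 (adjusted p = 0.175, limma with Benjamini-Hochberg adjustment). The stromelysin MMP11, above the line, had a log2 difference of 0.16, and the uncalled MMPs as a whole ran from -0.15 to 0.25.

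Among the 18 ADAMTS proteases, 2 rose and 1 fell, or 11.1% and 5.56%, beside 6.41% and 9.42% of all genes. ADAMTS9, which cuts the proteoglycans versican and aggrecan, had 6.43 and 6.47 in shINSL4 and 7.44 and 7.40 in shCtl. Replicates lay close together and the groups did not overlap. ADAMTS9 fell by 0.97 (SE 0.0617, limma with Benjamini-Hochberg adjustment, adjusted p = 0.000291), 1.96-fold lower. ADAMTS1, another versican-cleaving member, had 6.07 and 6.0 in shINSL4 and 5.79 and 5.63 in shCtl, all below the dim line. Its log2 difference was 0.33 (SE 0.0773, limma with Benjamini-Hochberg adjustment, adjusted p = 0.0344). That call was lost with median centring, quantile or cyclic loess normalization, and without shINSL4 replicate 1, shINSL4 replicate 2 or shCtl replicate 2, at adjusted p-values of 0.0514 to 0.162. ADAMTS16, a member linked to blood pressure in rats, had 7.13 and 7.03 in shINSL4 and 6.79 and 6.64 in shCtl. It rose 1.29-fold (log2 difference 0.36, SE 0.0777, limma with Benjamini-Hochberg adjustment, adjusted p = 0.0238), and the call was lost without shINSL4 replicate 1 (0.116) or shCtl replicate 2 (0.0700).

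The other 5 proteoglycan-cleaving ADAMTS genes (ADAMTS4, ADAMTS5, ADAMTS8, ADAMTS15 and ADAMTS20) had log2 differences of 0.11 to 0.17. The procollagen N-propeptidases ADAMTS2, ADAMTS3 and ADAMTS14 had 0.11 to 0.14. ADAMTS13, the plasma protease of von Willebrand factor, had 0.13 with a 95% interval of -0.05 to 0.31. The 5 ADAMTS-like genes, which encode related matrix proteins without a protease domain, had 0.08 to 0.16 and 0 passed, also at an unadjusted p under 0.05 in limma. So ADAMTS9 stood alone among the ADAMTS genes in falling, while ADAMTS10 and ADAMTS12 had differences of -0.01 and -0.03.

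Many members were slightly above the controls without passing. Of the 67 members, 54 (80.6%) had a log2 difference above 0, against 68.8% of all genes, and the median was 0.13, against 0.08 for all genes. The arrays of the groups did not overlap for 59 members (88.1%), against 68.9% of all genes. The shINSL4 arrays were the higher ones in 51 of the 67 members, beside 48.0% of all genes. They were the lower ones in 8 of the 67, beside 20.8% of all genes. The genes at or below the dim line had a median of 0.13 among members and 0.11 among all genes. Of these, 86.7% of the members and 80.3% of all genes had a log2 difference above 0. Above the line, the shares were 75.7% and 62.8%. The members' median depended on the scaling: it was 0.08 after median centring, 0.06 after quantile and 0.04 after cyclic loess normalization, with 0.04, 0.03 and 0.01 for all genes.

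**Figure D3:**
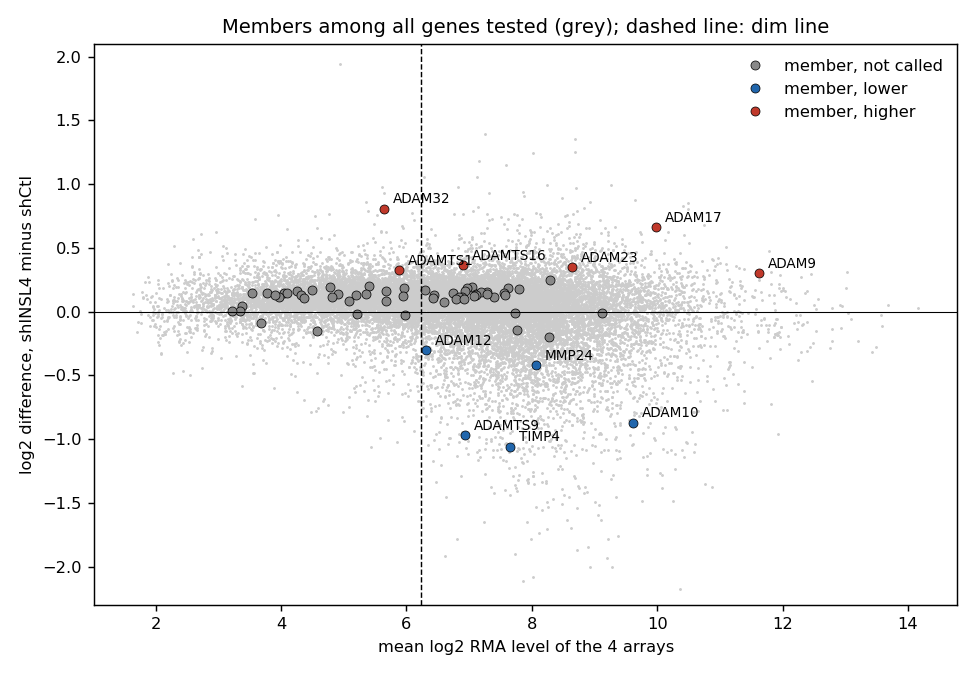
Mean log2 RMA level of the 4 arrays against the log2 difference, shINSL4 minus shCtl, for all 22465 genes (grey) and the 67 members. The dashed line is the dim line at 6.23; uncalled members follow the grey band, and ADAM32 and ADAMTS1 are the called members to its left.

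Genes that work with these proteases were read from a list of partners, of which 25 of 27 were measured. It was chosen, like the substrate lists below, with earlier results of these data known. Of the 25, 5 fell (20.0%, beside 9.42% of all genes) and 0 rose (beside 6.41%, limma with Benjamini-Hochberg adjustment). The median log2 difference was 0.02. Above the dim line, where 20 of the 25 lay, 13.5% of all genes fell and 7.32% rose. At an unadjusted p under 0.05, 6 were lower and 4 higher, beside 13.6% and 20.8% of all genes. Tetraspanins of the TspanC8 group carry ADAM10 to the cell surface, and 2 of the 6 fell. TSPAN17 had 7.81 and 7.80 in shINSL4 and 8.79 and 8.70 in shCtl, 1.92-fold lower (adjusted p = 0.000356, limma with Benjamini-Hochberg adjustment). TSPAN14 had 9.06 and 9.18 in shINSL4 and 9.97 and 9.95 in shCtl, 1.80-fold lower (adjusted p = 0.000641, limma with Benjamini-Hochberg adjustment). For both, the knockdown arrays lay below the control arrays. TSPAN15 had a log2 difference of -0.16, TSPAN33 of 0.04, TSPAN5 of 0.13 and TSPAN10 of 0.14, and none of these 4 passed.

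FURIN, the convertase that removes the prodomain of ADAM10, ADAM17 and membrane-type MMPs, had 7.64 and 7.55 in shINSL4 and 8.46 and 8.42 in shCtl. It fell by 0.85 on the log2 scale (SE 0.0662, limma with Benjamini-Hochberg adjustment, adjusted p = 0.000585). RECK, a membrane-anchored inhibitor of several MMPs and of ADAM10, had 5.79 and 5.94 in shINSL4 and 6.54 and 6.60 in shCtl, and fell by 0.70 (SE 0.0750), with its knockdown values below the dim line. LRP1, the endocytic receptor that clears proteases and TIMP complexes, fell by 0.31 (SE 0.0726). The adjusted p was 0.00179 for RECK and 0.0339 for LRP1 (limma with Benjamini-Hochberg adjustment). The carriers of ADAM17 did not pass: the log2 difference was 0.10 for RHBDF1, -0.07 for RHBDF2 and -0.03 for FRMD8, with 95% intervals of -0.05 to 0.25, -0.23 to 0.10 and -0.17 to 0.12.

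**Figure D4:**
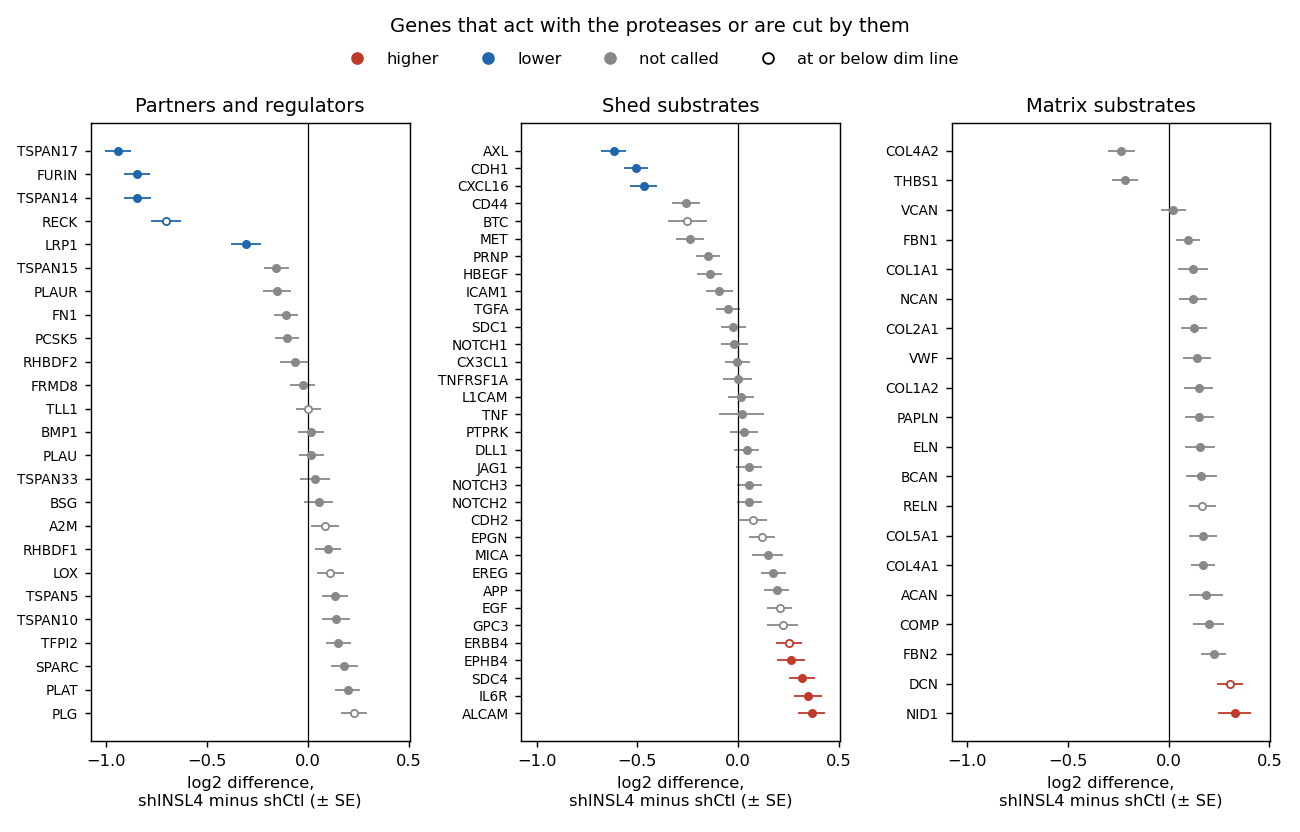
Log2 difference, shINSL4 minus shCtl, with limma's standard error for the measured genes of the partner, shed-substrate and matrix-substrate lists. Colours give the test result and open circles are rows at or below the dim line. TSPAN17, FURIN, TSPAN14 and RECK stand apart at the low end of the partners.

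Of 33 measured genes whose proteins are shed by ADAMs or MMPs, 5 rose (15.2%, beside 6.41% of all genes) and 3 fell (9.09%, near the 9.42% of all genes), with a median of 0.03. Above the dim line, where 27 of the 33 lay, 7.32% of all genes rose and 13.5% fell. The receptor tyrosine kinase gene AXL fell by 0.62, the E-cadherin gene CDH1, also an epithelial marker here, by 0.51, and the membrane-bound chemokine gene CXCL16 by 0.47 on the log2 scale. ALCAM, a cell adhesion molecule cut by ADAM17, rose by 0.37, with 9.49 and 9.49 in shINSL4 and 9.07 and 9.18 in shCtl. The interleukin-6 receptor gene IL6R rose by 0.34, the syndecan gene SDC4 by 0.32, EPHB4 by 0.26 and ERBB4, from below the dim line, by 0.25; apart from ALCAM and the 3 that fell, these, LRP1 and VCAN were named after their values were seen. Without shINSL4 replicate 1, shINSL4 replicate 2 or shCtl replicate 2, 1 of these substrates was higher in each fit, in place of 5. The 3 lower ones became 5 without shCtl replicate 1, with either variance trend or with either filter on dim genes, 6 with the replicate block or cyclic loess, and 1 with treat. Among 20 measured matrix substrates, 18 of them above the dim line, 2 rose (10.0%, beside 6.41% of all genes) and 0 fell (beside 9.42%, limma with Benjamini-Hochberg adjustment). Their median was 0.15. At an unadjusted p under 0.05, 7 were higher and 2 lower, beside 20.8% and 13.6% of all genes. The lower count was 2 with the replicate block, either variance trend, median centring or either filter on dim genes, and 1 with quantile or cyclic loess normalization. The genes that rose were the basement membrane gene NID1 at 0.33 and, below the dim line, the proteoglycan gene DCN at 0.30. The count of higher matrix genes was 0 with cyclic loess and without shINSL4 replicate 1 or shCtl replicate 2, and 1 without shINSL4 replicate 2. FBN2, a fibrillin gene, had a log2 difference of 0.22 (adjusted p = 0.0517) and COL4A2, a basement membrane collagen gene, one of -0.23 (adjusted p = 0.0591, both limma with Benjamini-Hochberg adjustment). The versican gene VCAN, whose protein ADAMTS9 cuts, had 8.86 and 8.89 in shINSL4 and 8.83 and 8.87 in shCtl, a log2 difference of 0.02 with a 95% interval of -0.12 to 0.17.

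**Figure D5:**
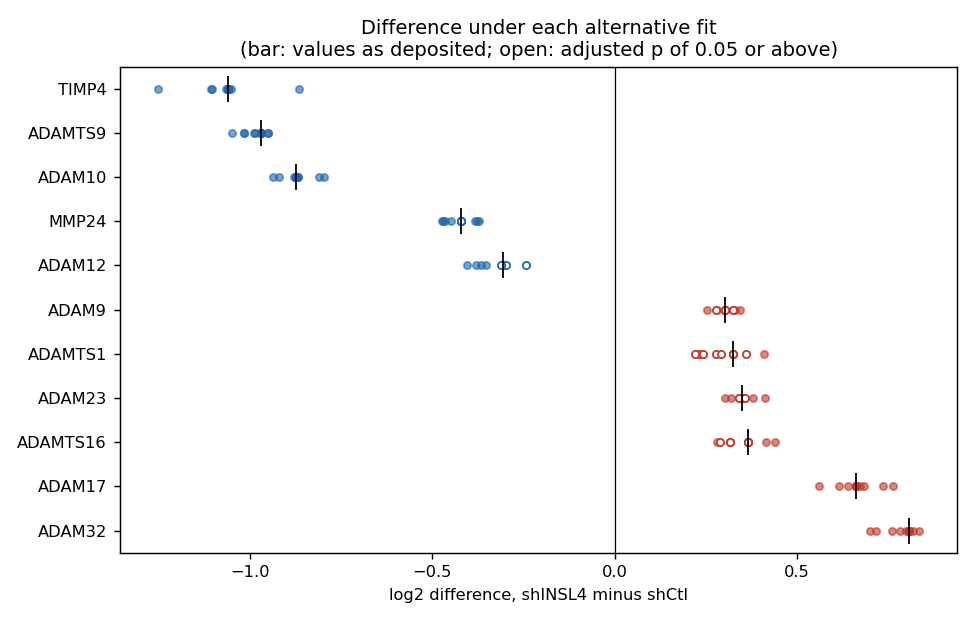
Log2 difference, shINSL4 minus shCtl, of the 11 called members under each alternative fit that gave a value. The black bar is the value as deposited and open circles are fits with an adjusted p of 0.05 or above. No point crosses 0, and TIMP4, ADAMTS9, ADAM10, ADAM17 and ADAM32 have no open circle.

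Direction was the same for all 11 called members in each of up to 14 alternative fits. ADAMTS9, ADAM10, ADAM17 and TIMP4 passed in all 14, and ADAM32 in the 12 that included it, since the filters on dim genes left it out. MMP24 passed in 13 of 14 and lost the call with treat against 1.2-fold. The others lost the call in 3 to 7 fits, and treat was among them for each gene. Conversely, 10 of the 56 uncalled members passed in some fit, a share not counted over all genes. MMP7 passed in 6, ADAM15 in 5, ADAM19 in 2, and 7 in 1 each. Of these 7, MMP16, MMP25, MMP26, ADAM33 and ADAMTSL2 passed without shCtl replicate 1, MMP1 with quantile normalization and ADAM30 with the replicate block.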

How the data were processed

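RNA of 4 A549 cultures was measured on Affymetrix arrays, 2 shINSL4 and 2 shCtl. Total RNA was labelled as biotinylated single-stranded cDNA, per the labels' protocols. The deposited log2 values are the authors' RMA values; Affymetrix Expression Console is the software that the submitters' processing notes name. RMA equalises the arrays, so a shift shared by most genes would be reduced. For its version and for the annotation's build: not given in the sources used here. Of 67528 rows, 23781 had 1 symbol in the platform annotation, 1543 several and 42204 none.

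One limma 3.58.1 model (R 4.3.3) covered all 22465 genes (group term, eBayes, two-sided, Benjamini-Hochberg over all genes, threshold 0.05), with no filter. Errors are SD or SE, n = 2 per group, and precision is limited by having only 4 arrays (median SE of a log2 difference 0.0693). The alternatives were a replicate block, a variance trend (also robust), quantile, cyclic loess and median scaling, filters on dim genes, the mean over a gene's rows, treat at 1.2-fold, an adjusted p of 0.1, a 1.5-fold minimum, and each array left out. Named genes were every called member, every TIMP, examples above the dim line and the 4 of each partner or substrate list with the smallest p, with others as examples. A planned split of ADAMs by the zinc-binding motif was not made, as protein sequences were not used here. Members and lists were chosen with earlier results of these data known. The fit was tested on simulated data with 200 of 22465 genes changed, fewer than passed in the real data. It recovered 0 of them at 1.2-fold, 76.5% at 1.5-fold and 98% at 2-fold.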

Additional observations from a re-analysis of the deposited data

How the results depend on the processing

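The 6 higher members became 2 with treat against 1.2-fold or a 1.5-fold minimum, and the 5 lower ones became 3 with either. Over all genes, treat gave 109 higher and 677 lower, in place of 1440 and 2117. Leaving out 1 array made the count of higher members smaller, except without shCtl replicate 1, where it was larger. The count of higher genes over all genes moved the same way, and the count of lower members changed little. In these fits the lone sample of a group is assumed to vary like the other group, and without either shINSL4 array limma gave all genes 1 common spread. An adjusted p under 0.1 gave 9 higher and 6 lower members, and that count was not made over all genes. The scaling, trend, filter and row alternatives gave 5 to 7 higher and 5 to 6 lower members. Over all genes they gave 808 to 2246 higher and 2107 to 2497 lower, the filters on fewer genes. Over the 3 partner and substrate lists together, 7 genes were higher: 4 after cyclic loess or median centring, 0 with treat or a 1.5-fold minimum, 12 at an adjusted p under 0.1, and 1 to 10 with 1 array left out (1 without shINSL4 replicate 1 or shCtl replicate 2, 2 without shINSL4 replicate 2). The 8 lower ones became 5 with treat or a 1.5-fold minimum and 7 to 9 with 1 array left out. With the replicate number as a block, 8 members were higher and 5 lower, and 13 list genes were lower. Over all genes the block gave 2996 higher and 2605 lower. Deviations of same-numbered arrays correlated at 0.232 across genes, and their titles also share a code letter. What that letter marks is not given in the labels, so whether the arrays are pairs cannot be told, and with 2 pairs the correlation does not settle it. The fall of INSL4 ran from -1.79 to -1.68 with 1 array left out. Causes of these changes were not tested, apart from fewer arrays or stricter rules by construction. The 11 called members and INSL4 kept their direction in every alternative that gave a value. With only 4 arrays, the median SE of a log2 difference was 0.0693, which limits what could be told from 0.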

Other observations

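Rows that the choice of members left out gave further values. The 11 antisense and pseudogene rows of these families had 0 genes past limma with Benjamini-Hochberg adjustment, and 1 higher at an unadjusted p under 0.05, beside 20.8% of all genes. That 1 was the pseudogene ADAMTS7P1, with 7.37 and 7.35 in shINSL4 and 7.21 and 6.99 in shCtl (log2 difference 0.26, adjusted p = 0.0829, limma). ADAMTS9-AS1 and ADAMTS9-AS2, antisense genes of ADAMTS9, both lay below the dim line, with log2 differences of 0.09 and 0.06 beside the fall of ADAMTS9 by 0.97.

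Neighbours of the called members were taken from the GRCh38.p14 order of protein-coding genes by start position alone. A gene lying within another can thus count as its neighbour. Most measured neighbours did not pass. Those that passed were ZDBF2, IAH1, YWHAQ, and ADAM9 and ADAM32, which are called members and each other's neighbours. They moved in the same or the opposite direction. Whether their share differs from the 15.8% of all genes that passed in either direction was not tested. MAGI1, LIPC, MMP24OS, FAM237A and ICE1 had no value under these names. ADAM32 and ADAM9 are adjacent on chromosome 8 and both rose, while ADAM18, on the other side of ADAM32 among protein-coding genes, had a log2 difference of 0.05. ZDBF2, next to ADAM23 on chromosome 2, rose by 0.30 (adjusted p = 0.0276, limma with Benjamini-Hochberg adjustment), beside the rise of ADAM23 by 0.35. Next to ADAM17 on chromosome 2, IAH1 fell by 0.40 and YWHAQ by 0.27 on the log2 scale (adjusted p = 0.00722 and 0.0317, limma with Benjamini-Hochberg adjustment), against the rise of ADAM17 by 0.66. SYN2 and PPARG, before and after TIMP4 in this order on chromosome 3, had log2 differences of 0.06 and 0.21. CYYR1 and ADAMTS5, next to ADAMTS1 on chromosome 21, had 0.17 and 0.12, and TM2D2, next to ADAM9, had 0.11. PRICKLE2, beside ADAMTS9, had -0.02, MINDY2, beside ADAM10, -0.14 and PROCR, beside MMP24, -0.07. IRX1, beside ADAMTS16, had 0.16, and FANK1 and C10orf90, beside ADAM12, 0.04 and -0.06. None of these passed.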
